A study of Arabidopsis thaliana with 6 samples.

Results

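Subtilisin-like serine proteases, or subtilases, were examined in seedlings of Arabidopsis thaliana, ecotype Columbia. The family was taken as 56 loci of subfamilies SBT1 to SBT6, given by locus identifier, and 45 of them had a probe set assigned to a single gene on the array. A further 4 loci shared a probe set with a neighbouring copy (AT3G46840 with AT3G46850, and AT4G10520 with AT4G10530). The other 7 had no entry in the platform annotation used and were not analysed here. Among these were AIR3 (AT2G04160), the subtilase tied to lateral root emergence, SDD1 (AT1G04110), which acts in stomatal spacing, XSP1 (AT4G00230) of the xylem and ALE1 (AT1G62340) of the embryo surface.

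The tested seedlings were kept in liquid medium with the synthetic auxin 2,4-D (1e-07 M) together with brassinazole (1e-06 M), an inhibitor of brassinosteroid synthesis (3 arrays). Their counterparts had the same dose of 2,4-D alone (3 arrays). All seedlings were 10 d old, raised on agar in days of 16 h light and 8 h dark, and the treatment lasted 8 h. Whole seedlings were extracted, 3 to a batch, and RNA was pooled, so roots and shoots are mixed in every value. Both groups carry auxin, so every change is one of brassinazole on top of 2,4-D, and the effect of 2,4-D itself was not analysed here. The titles call the samples biological replicates. Whether each came from its own seedlings is not clear from the labels, and if not, the p-values speak only of the variation among these 6 arrays, which may be technical.

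Most plant subtilases are made as inactive precursors with a signal peptide and a prodomain, and are secreted to the cell wall, where they cut other proteins. Several mature peptide hormones out of longer precursors. SBT5.2 (ATSBT5.2 in RefSeq), SBT4.12 and SBT4.13 process the precursor of IDA, a peptide that the receptor kinases HAE and HSL2 perceive during organ shedding and lateral root emergence. The SBT6 enzymes stand apart: S1P works in the Golgi on membrane-anchored proteins, and TPP2 trims peptides inside the cell.

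Values are linear Affymetrix signals, scaled by the authors to a common trimmed mean, which was 500.05 on all 6 arrays. Spearman correlations across probe sets were 0.985 to 0.989 within the brassinazole group, 0.988 to 0.989 within the 2,4-D group and 0.981 to 0.985 between them. The second principal component (20.2% of the variance) set brassinazole replicate 3 (27.9) apart from replicates 1 and 2 of its group (-18.0 and -21.1). The 25S rRNA control read 981 on the 2,4-D replicate 1 array, and 174 to 215 on the other 5 arrays. The BioB-5 control read 338 on brassinazole replicate 3 and 156 to 204 on the other 5 arrays, and BioC-5 read 368 against 246 to 267. The bioD-5 control did not set that array apart (3706, with 3094 to 3830 on the others). The 5S rRNA control was at 230.03 to 284 on brassinazole arrays and 134 to 174 on 2,4-D arrays. The 3' to 5' ratio of 1 of 2 actin control sets was 18.8 to 21.1 with brassinazole and 12.3 to 17.3 with 2,4-D alone, while that of ubiquitin in the same set was 2.59 to 3.00 and 3.14 to 3.54. Of 16 tissue markers listed, 6 could be named, and the fit described below called 0 of them. At an unadjusted limma p under 0.05, 2 of the 6 were lower and 0 higher, against 11.4% and 10.5% of all probe sets tested. RCA of leaves (22954 to 29053 with brassinazole, 24531 to 25764 with 2,4-D alone) and PYK10 of roots (14490 to 17349 and 13503 to 17410) were both present at high signal. For leaf and for root, 1 of 3 listed markers could be named. The 2 root hair markers that could be named of 3, EXPA7 and EXPA18, summed to 314 to 360.3 on brassinazole arrays and 430 to 524 on 2,4-D arrays. The 2 stomatal lineage markers that could be named of 4, SPCH and FAMA, summed to 287 to 326 and 299 to 333. No xylem marker could be named. The part of tissue makeup, RNA quality or single arrays in the results below was not tested.

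ATSBT5.2 and SBT4.12 rose with brassinazole, and no other of the 23 subtilases tested passed in either direction. ATSBT5.2 was 1.56-fold and SBT4.12 1.42-fold higher on the scale of signal + 16, and the ratios of their mean signals were 1.59 and 1.43. Of the 45 single-gene probe sets, 23 had a mean over all 6 arrays at or above the 25th percentile of all probe sets (a signal of 34.2) and were tested, with limma on log2(signal + 16) and Benjamini-Hochberg adjustment over 17059 probe sets. With an adjusted p under 0.05, 2 of 23 members were called (8.70%), against 7.52% of all probe sets tested. Both were higher, so 2 of 23 members were called higher and 0 of 23 lower. Of all probe sets tested, 3.44% were called higher and 4.08% lower (586 and 696 probe sets). With arrays centred on their median that balance turned, to 676 higher and 609 lower. The count of 0 lower members compares with 2 lower members at an unadjusted limma p under 0.05, and 4 members were higher at that p. Over all probe sets tested, 11.4% were lower and 10.5% higher at that p. The share called in either direction is near the background. The counts by direction rest on few members, and they are no result about the family as a whole. The median log2 change of the 23 tested members was 0.01, and that of all probe sets tested was -0.01.

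**Figure D1:**
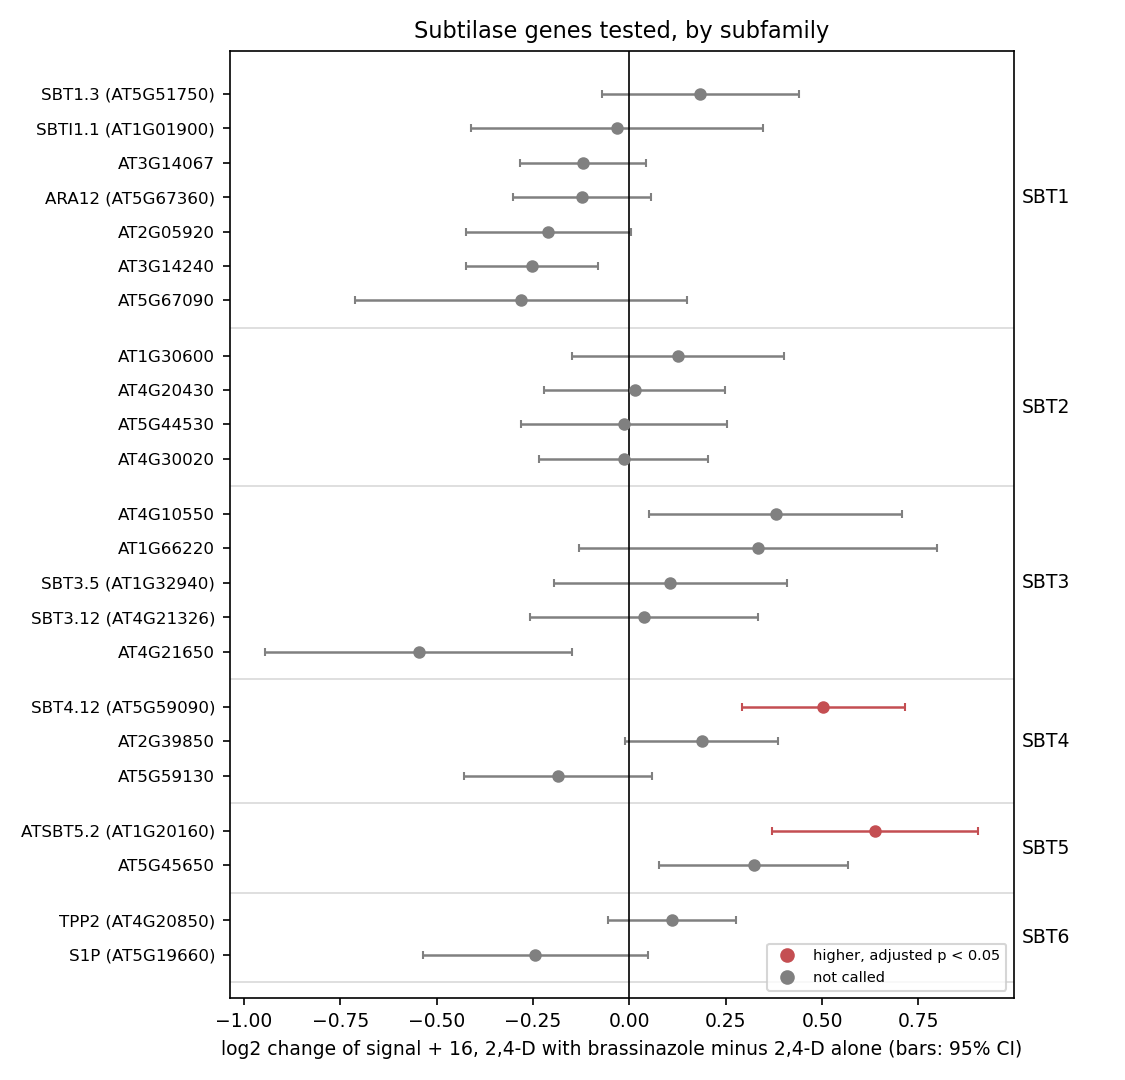
Log2 change of signal + 16 (x axis, 2,4-D with brassinazole minus 2,4-D alone) with its 95% confidence interval for the 23 tested subtilase genes, grouped by subfamily. ATSBT5.2 and SBT4.12 (red) passed an adjusted p of 0.05, and the other 21 (grey) did not.

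ATSBT5.2 (AT1G20160), also studied as the protease that cuts the stomatal peptide precursor EPF2, had signals of 353, 431 and 333 on the brassinazole arrays, against 244, 257 and 199 on the 2,4-D arrays. Every brassinazole array was above every 2,4-D array. Means were 372 ± 51.5 and 233 ± 30.3 (SD, n = 3 each). The log2 change was 0.64 ± 0.12 (SE), with a 95% confidence interval of 0.37 to 0.90 and a limma adjusted p of 0.00585. Whether more cells expressed the gene or each held more of its RNA cannot be told apart in whole seedlings, which applies to all values here.

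SBT4.12 (AT5G59090) had signals of 1527, 1478 and 1180 on the brassinazole arrays, against 995, 958 and 968 on the 2,4-D arrays. The groups did not overlap, and brassinazole replicate 3 lay closest to the 2,4-D arrays. Means were 1395 ± 188 and 974 ± 18.9 (SD, n = 3 each), a log2 change of 0.50 ± 0.0986 (SE; 95% confidence interval 0.29 to 0.71; limma adjusted p = 0.00596). Without brassinazole replicate 3 the log2 change was 0.62, and without that array and 2,4-D replicate 1 it was 0.63. The corresponding values for ATSBT5.2 were 0.71 and 0.74.

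The third protease that processes the IDA precursor, SBT4.13 (AT5G59120), was too dim to be tested. Its signals were 0.871, 14.3 and 18.6 with brassinazole, against 27.6, 18.1 and 5.69 with 2,4-D alone, so the groups overlapped. IDA, HAE and HSL2 themselves were not analysed here, having no single-gene probe set in the annotation.

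Brassinazole and 2,4-D values were fully apart in 8 of the 23 tested members (34.8%), against 27.2% of all probe sets tested. Of the 23 tested members, 5 were apart with brassinazole higher, against 12.9% of all probe sets tested. Another 3 of the 23 were apart with brassinazole lower, against 14.3%. Besides both called genes the 8 were AT5G45650, AT4G10550 and AT2G39850 on the higher side, and AT3G14240, AT4G21650 and AT3G14067 on the lower side. At an unadjusted p under 0.05, 6 of 23 members differed, where 21.9% of all probe sets did.

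AT3G14240, an SBT1 gene, came closest to a lower call. Its signals were 1605, 1597 and 1538 on brassinazole arrays, against 1957, 1957 and 1744 on 2,4-D arrays. All brassinazole values lay below all 2,4-D values, by a log2 change of -0.25 ± 0.0798 (SE; limma adjusted p = 0.074).

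AT4G21650 of SBT3 read 60.8, 51.3 and 42.8 with brassinazole, against 71.4, 76.5 and 101 with 2,4-D alone. This was the most negative log2 change among tested members, -0.55 ± 0.19 (SE), and it did not pass (limma adjusted p = 0.0947). Its 95% confidence interval ran from -0.94 to -0.15.

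AT5G45650, the second tested SBT5 gene, read 298, 301 and 383 with brassinazole, against 269, 249 and 252 with 2,4-D alone (log2 change 0.32 ± 0.11, SE; limma adjusted p = 0.109). Brassinazole replicate 3 was the highest value. AT4G10550 of SBT3 read 95.03, 97.3 and 95.3 with brassinazole, against 65.4, 79.9 and 65.5 with 2,4-D alone (log2 change 0.38 ± 0.15, SE; limma adjusted p = 0.159). Neither passed, although the groups did not overlap in either gene.

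**Figure D2:**
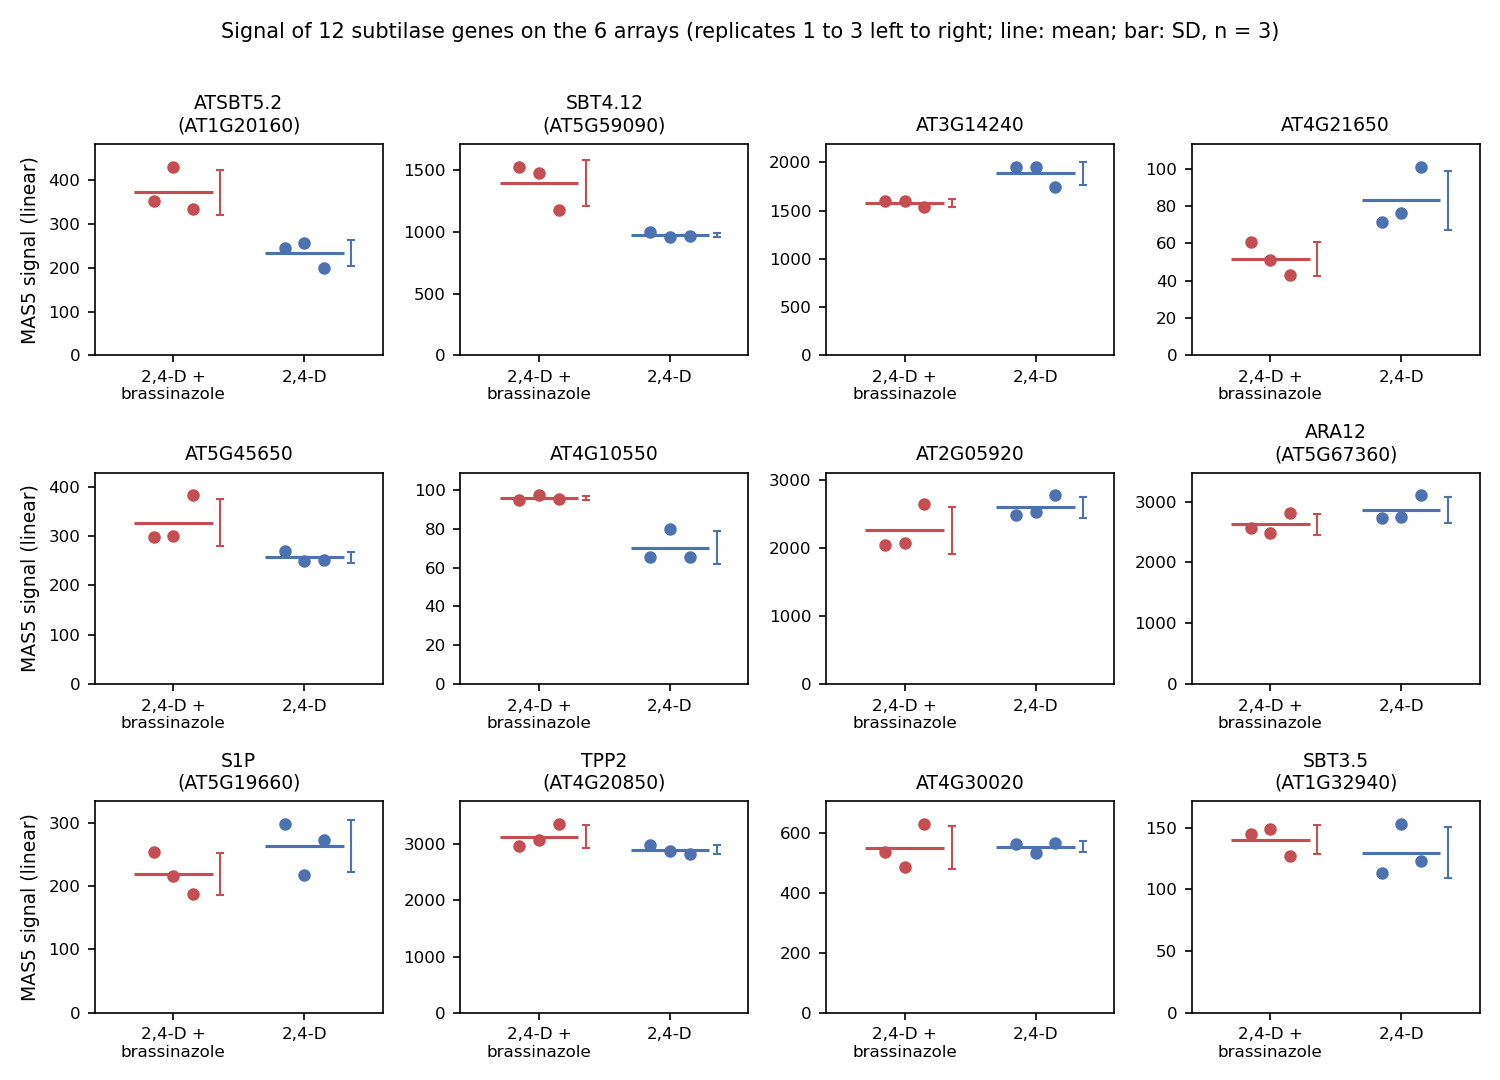
MAS5 signal (y axis, linear from 0) of 12 subtilase genes on the 3 brassinazole arrays (red, left) and the 3 2,4-D arrays (blue, right), with the mean as a line and the SD as a bar. The groups are apart in the first 6 panels, of which ATSBT5.2 and SBT4.12 passed the test, and overlap in the last 6.

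Among the SBT1 genes, secreted enzymes that include ARA12, 0 of 7 tested members passed. At an unadjusted limma p under 0.05, 1 of 7 was lower and 0 higher, against 11.4% and 10.5% of all probe sets tested. The log2 change was negative for 6 of 7, from -0.28 for AT5G67090 to -0.03 for SBTI1.1, with a median of -0.12. SBTI1.1 (AT1G01900), known to cut a precursor of the growth peptide phytosulfokine, was at 98.6, 101 and 116 with brassinazole and 145, 82.4 and 103 with 2,4-D alone, and its sign turned with quantile normalization (0.0022). The exception was SBT1.3 (AT5G51750), at 0.18 (adjusted p = 0.404). The summed signal of the 7 genes was 9469, 9192 and 10534 on brassinazole arrays, against 10545, 10184 and 11074 on 2,4-D arrays. Those sums overlapped, through brassinazole replicate 3.

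ARA12 (AT5G67360), an abundant wall subtilase known for its part in the release of seed coat mucilage, read 2572, 2482 and 2816 with brassinazole, against 2730, 2739 and 3103 with 2,4-D alone. The groups overlapped, and the log2 change of -0.12 did not pass (95% confidence interval -0.30 to 0.06; limma adjusted p = 0.434).

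AT2G05920 was the member whose call depended on a single array. It read 2049, 2069 and 2647 with brassinazole, against 2486, 2529 and 2772 with 2,4-D alone. Brassinazole replicate 3 alone reached into the 2,4-D range. With all arrays the log2 change was -0.21 (limma adjusted p = 0.239). Without brassinazole replicate 3 it was -0.33 (adjusted p = 0.0268), and without that array and 2,4-D replicate 1 it was -0.36 (0.0423). Over the alternatives that left out a single array, the adjusted p ran from 0.0268 to 0.526.

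No change was called among the SBT2 genes. Of 4 tested members, 0 passed, 0 had an unadjusted limma p under 0.05, and the 95% confidence intervals of the log2 change lay between -0.28 and 0.40. AT4G30020 read 535, 488 and 629 with brassinazole, against 564, 533 and 565 with 2,4-D alone, a log2 change of -0.02 that turned to 0.01 with arrays centred on their median. AT4G20430 had nearly the same signal on all arrays, 179.8 to 188 with brassinazole and 177 to 189 with 2,4-D alone.

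In the SBT3 subfamily, the largest with 19 loci, 16 had a single-gene probe set and 11 of these were too dim to be tested. The 5 tested ranged from -0.55 for AT4G21650 to 0.38 for AT4G10550 in log2 change, and 0 passed. At an unadjusted limma p under 0.05, 1 was higher and 1 lower, where 21.9% of all probe sets tested differed. SBT3.5 (AT1G32940), known to act with a pectin methylesterase in roots, read 145, 149 and 127 with brassinazole, against 114, 153 and 123 with 2,4-D alone, and the groups overlapped. SBT3.12 (AT4G21326) had a log2 change of 0.04 and AT1G66220 one of 0.33 (adjusted p = 0.912 and 0.405). SBT3.3 (AT1G32960), linked to immune priming, was below the filter at 36.8, 27.9 and 25.7 with brassinazole, against 27.4, 31.02 and 6.95 with 2,4-D alone.

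Of the 11 SBT4 genes with a single-gene probe set, 3 were tested. Beside SBT4.12, AT2G39850 read 491, 549 and 533 with brassinazole, against 472, 473 and 430 with 2,4-D alone, a log2 change of 0.19 (adjusted p = 0.256). AT5G59130 had a log2 change of -0.19 (adjusted p = 0.376).

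Neither enzyme of the SBT6 subfamily passed. S1P (AT5G19660), the site-1 protease that releases membrane-bound transcription factors and cuts RALF peptide precursors, read 254, 217 and 188 with brassinazole, against 298, 218 and 273 with 2,4-D alone. The log2 change of -0.24 did not pass (95% confidence interval -0.54 to 0.05; limma adjusted p = 0.327). TPP2 (AT4G20850), tripeptidyl peptidase II, read 2968, 3078 and 3360 with brassinazole, against 2989, 2876 and 2832 with 2,4-D alone. The groups overlapped through brassinazole replicate 1. Its log2 change was 0.11, with an interval of -0.06 to 0.28 (adjusted p = 0.448).

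Over the 21 tested members that were not called, the log2 change ran from -0.55 to 0.38, and the widest confidence bounds were -0.94 and 0.80. The summed signal of the 23 tested members was 17313, 17114 and 18529 with brassinazole, against 17778, 17128 and 17993 with 2,4-D alone, means of 17652 ± 766 and 17633 ± 450.3 (SD, n = 3 each). The family total thus differed by less than the spread between arrays, while 2 subfamily sums did not overlap between the groups. The 3 tested SBT4 genes summed to 2260, 2306 and 1958 with brassinazole, against 1800, 1707 and 1669 with 2,4-D alone. The 2 tested SBT5 genes summed to 651, 731 and 716 with brassinazole, against 514, 506 and 451 with 2,4-D alone. Each of these sums contains a called gene, SBT4.12 or ATSBT5.2, so it is no separate result. The SBT1, SBT2, SBT3 and SBT6 sums overlapped. Sums are set mainly by their brightest probe sets, and signals of different probe sets do not compare as transcript amounts. The median within-group SD of the tested members on the log2 scale was 0.108 with brassinazole and 0.105 with 2,4-D alone, against 0.124 and 0.119 over all probe sets tested. In 12 of 23 members brassinazole replicate 3 was the array farthest from its group mean, against 3 for replicate 1 and 8 for replicate 2.

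Many subtilase genes stand in tandem: 31 of the 56 loci fell into 10 clusters, taken as members of a chromosome whose locus numbers follow each other with gaps of at most 100. Within these clusters, 27 members had a single-gene probe set, and 9 of them (33.3%) passed the filter on dim probe sets. Outside clusters 14 of 18 did (77.8%), and over all single-gene probe sets of the array 69.7% did. In 7 of the 9 clusters with a single-gene probe set, exactly 1 member passed. These shares are a description, with no test. The filter uses the mean of both groups.

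Both called genes lie in clusters. ATSBT5.2 is next to AT1G20150 on chromosome 1, with 0 protein-coding genes between them, and AT1G20150 was dim at 12.01, 26.6 and 39.1 with brassinazole, against 22.8, 24.7 and 28.2 with 2,4-D alone. The groups overlapped in that neighbour.

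SBT4.12 heads a run of 5 SBT4 genes on chromosome 5, AT5G59090 to AT5G59190. Other protein-coding genes interrupt the run, 2 just before AT5G59120 and 5 just before AT5G59190. The immediate neighbour of SBT4.12, AT5G59100, read 18.1, 13.8 and 11.4 with brassinazole, against 60.8, 33.6 and 32.7 with 2,4-D alone. All its brassinazole values lay below all its 2,4-D values, opposite to SBT4.12. It fell under the filter, and with no filter its log2 change was -0.91 (limma adjusted p = 0.0641). AT5G59130, the other tested gene of the run, read 242, 279 and 245 with brassinazole, against 333, 276 and 271 with 2,4-D alone. Its groups overlapped, and the difference in response between SBT4.12 and its neighbours was not tested. SBT4.13 and AT5G59190 of the same run were dim and overlapped between the groups.

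**Figure D3:**
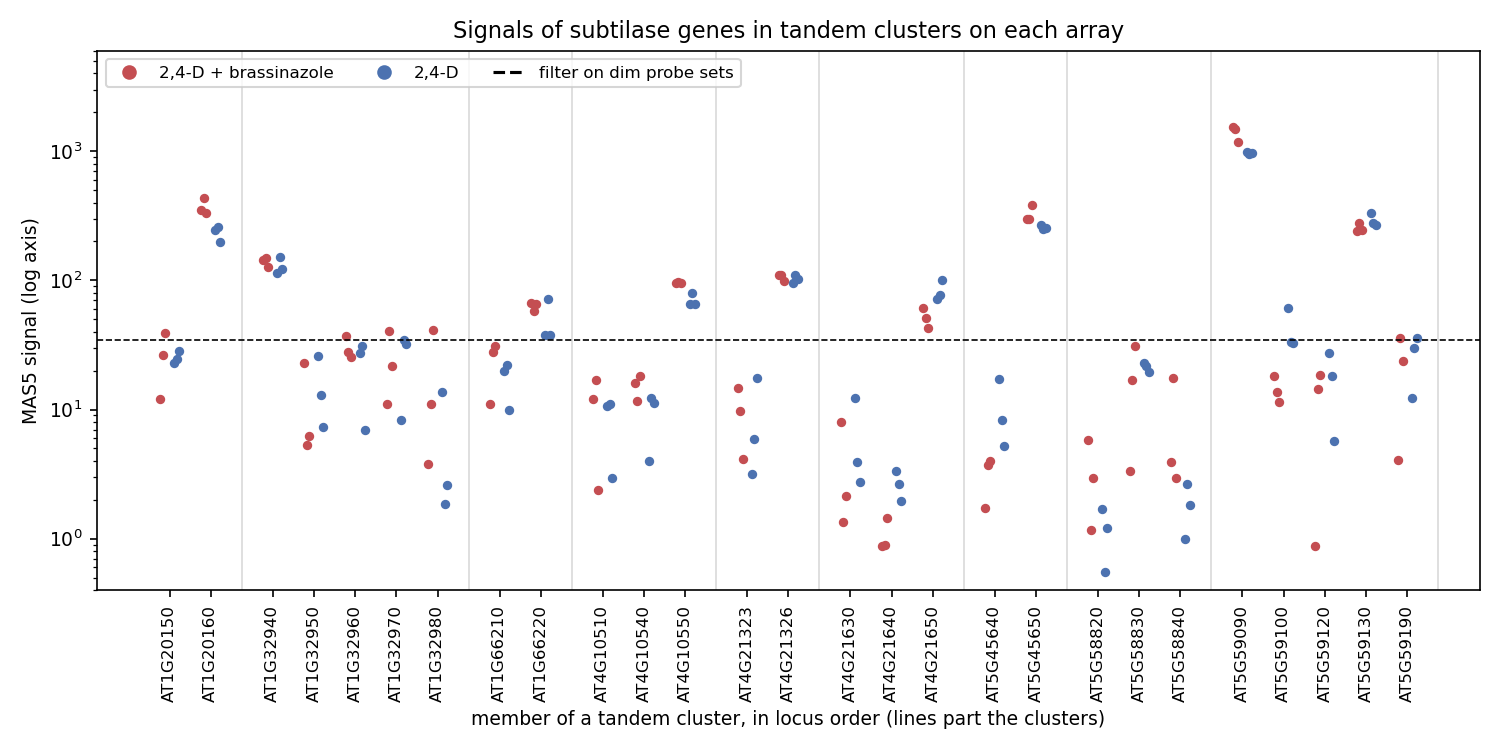
MAS5 signal (y axis, log scale) of the 27 subtilase genes in tandem clusters with a single-gene probe set, on each brassinazole array (red, left) and each 2,4-D array (blue, right), with the filter as a dashed line at 34.2. The filter uses the mean over all 6 arrays, so single points of genes that did not pass can lie above the line. In 7 of 9 clusters 1 gene passed the filter, and SBT4.12 (AT5G59090) and ATSBT5.2 (AT1G20160) are set higher in red than in blue.

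In the cluster AT4G21630 to AT4G21650, AT4G21650 passed the filter, while AT4G21640 (0.873, 0.891 and 1.45 with brassinazole, against 3.36, 2.64 and 1.95 with 2,4-D alone) and AT4G21630 (1.35 to 7.97 with brassinazole, 2.73 to 12.2 with 2,4-D alone) did not. In the cluster AT1G32940 to AT1G32980 SBT3.5 passed, and in AT4G10510 to AT4G10550 the gene AT4G10550 did. AT5G45650 passed and its neighbour AT5G45640 did not (1.73, 3.69 and 4.02 with brassinazole, against 17.2, 8.28 and 5.22 with 2,4-D alone). None of the 3 genes AT5G58820 to AT5G58840 passed, with signals of 1.17 to 30.9 with brassinazole and 0.553 to 23.1 with 2,4-D alone. In AT5G58840 the brassinazole values (3.94, 17.6 and 2.97) lay above the 2,4-D values (0.988, 2.64 and 1.83). All of these dim genes fell under the filter, and with no filter limma called none of them. The order of their groups is given as a description only.

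Over the 22 members too dim to be tested, signals ran from 0.871 to 41.6 with brassinazole and from 0.553 to 60.8 with 2,4-D alone. The 2 groups were fully apart in 5 of the 22 (22.7%), against 11.4% of all 5687 probe sets below the filter, a count given with no test. AT5G59100, AT4G21640 and AT5G45640 were lower with brassinazole, and AT5G58840 and AT4G15040 were higher. AT4G15040 read 6.65, 2.25 and 3.04 with brassinazole, against 1.54, 1.74 and 1.39 with 2,4-D alone. With no filter limma called 0 of the 22, and 1, AT5G59100, had an unadjusted p under 0.05. The probe set shared by AT4G10520 and AT4G10530 read 1.81, 4.09 and 3.79 with brassinazole, against 9.97, 17.9 and 16.9 with 2,4-D alone. That of AT3G46840 and AT3G46850 read 12.5, 11.2 and 8.29 with brassinazole, against 1.51, 10.6 and 27.9 with 2,4-D alone. No single gene can be named for either.

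A list of 42 loci held genes known to work with subtilases, namely peptide precursors and other substrates, receptors, a partner protease and an inhibitor. It also held lateral root genes and other auxin-induced root genes. Of the 42 loci, 9 could be named and tested. Of these 9, 1 fell and 0 rose, where 4.08% of all probe sets were called lower. At an unadjusted limma p under 0.05, 2 of the 9 were lower and 0 higher, against 11.4% and 10.5% of all probe sets tested. Their median log2 change was -0.04. The gene that fell was PGLR (AT5G14650), a polygalacturonase, that is, a pectin-cutting enzyme. PGLR was listed for lateral root emergence and not as a gene that works with subtilases. It read 519, 517 and 686 with brassinazole, against 944, 816 and 895 with 2,4-D alone. The groups did not overlap, and the log2 change was -0.62 ± 0.11 (SE; limma adjusted p = 0.00348).

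Substrates and partners of the named proteases did not pass. BZIP17 and BZIP28, membrane-bound transcription factors that S1P and then S2P cut, had log2 changes of 0.09 and -0.15 (adjusted p = 0.66 and 0.361), and S2P one of -0.04 (adjusted p = 0.924). TWS1, the precursor of an embryo cuticle peptide, read 137, 178 and 166 with brassinazole, against 202, 205 and 201 with 2,4-D alone, without overlap (log2 change -0.32; adjusted p = 0.141). GSO1, a receptor of the TWS1 peptide, was at -0.08 (adjusted p = 0.731). RALF33, the precursor of a RALF peptide, and FER, a receptor kinase for RALF peptides, had log2 changes of -0.04 and 0.01 (adjusted p = 0.864 and 0.968). SPI1, a proteinaceous inhibitor of subtilases, was at 0.03, with a 95% confidence interval of -0.17 to 0.24.

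**Figure D4:**
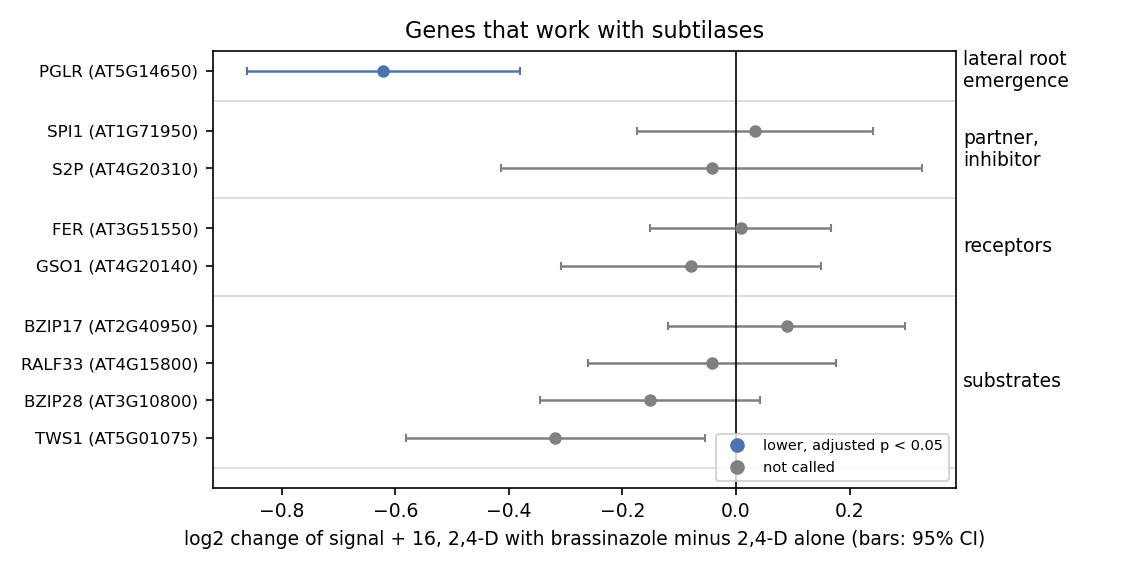
Log2 change of signal + 16 (x axis, 2,4-D with brassinazole minus 2,4-D alone) with its 95% confidence interval for the 9 tested genes of the list, grouped by role. PGLR (blue), listed for lateral root emergence only, fell, at -0.62. The other 8 (grey), which work with subtilases, did not pass.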

How the data were processed

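The deposited values are linear signal intensities made with MAS5, 1 per probe set and array, per the submitters' processing notes; version, detection calls and filters: not given in the sources used here. Their scaling fixes each array's mean and would hide a shift shared by most transcripts. No scanner file was used, and 3 arrays in each group limit the precision.

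The table held 22810 probe sets, 64 of them controls, which were left out. GEO's platform annotation gave 1 gene for 13513 probe sets, several for 503 and none for 8794. All 56 members matched a RefSeq gene table (TAIR10.1 assembly), used for symbols and gene order only. Signals were taken as log2(signal + 16), which understates changes of dim probe sets. Probe sets under the 25th percentile of the mean were left out, and limma 3.58.1 (R 4.3.3) compared the groups (lmFit, eBayes with trend, two-sided, Benjamini-Hochberg adjustment over 17059 probe sets, threshold 0.05). The steps were tested on simulated arrays.

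Members and gene lists were chosen with earlier results of these data known. Values for each array were given for members past the threshold, for the 6 with the smallest p, for the brightest of each subfamily and for members of established role. AT2G05920, a bright gene, as well as AT5G59100 and other dim genes, were added after their values were seen. Values for AT2G39850 and AT5G59130 were also given outside these rules. Alternatives were the pseudocount, filter, variance trend, scaling, a replicate block and arrays left out. Replicate numbers were not used to pair the samples in the main fit (correlations of deviations between arrays of the same number were 0.0081 to 0.024). Promoter and protein sequences were not analysed here.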

Additional observations from a re-analysis of the deposited data

How the results depend on the processing

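ATSBT5.2 and SBT4.12 kept their higher call under every alternative run, with log2 changes of 0.53 to 0.74 and 0.43 to 0.63. Their largest adjusted p was 0.0357 without brassinazole replicate 2 for ATSBT5.2, and 0.0468 without the variance trend for SBT4.12. With any single array left out, 2 members were called higher, and 0 to 1 lower; the lower call, also 1 without both 2,4-D replicate 1 and brassinazole replicate 3, was AT2G05920 (-0.33 and -0.36). PGLR stayed lower under every alternative, at -0.75 to -0.55, a check added after seeing the data. Over all probe sets, 586 were called higher and 696 lower, and centring on the median turned that balance, with 676 higher and 609 lower, while quantile normalization gave 617 and 653. The counts were 316 and 439 without the variance trend, 354 and 458 without both arrays, and 338 to 526 and 453 to 624 with a single array left out, where fewer arrays alone give fewer calls. The median of the tested members was -0.0141 with the filter at the 50th percentile (fewer members), 0.04 without both arrays and -0.0027 to 0.0406 with a single array left out, moves whose cause was not tested.

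Signs turned only among genes not called. Quantile normalization gave 0.0022 for SBTI1.1, 0.0078 for AT5G44530 and -0.012 for FER, and centring on the median gave 0.0058 for AT4G30020 and 0.0068 for AT5G44530. Without both arrays, SBTI1.1 was 0.098, AT4G20430 -0.0177, S2P 0.12 and SPI1 -0.11, and FER, whose sign held, 0.045. With a single array left out, the log2 changes were -0.20 to 0.16 for SBTI1.1, -0.0048 to 0.0372 for AT4G20430, -0.0032 to 0.0818 for SBT3.12, -0.11 to 0.0663 for AT4G30020 and -0.12 to 0.11 for AT5G44530. They were -0.17 to 0.0259 for RALF33, -0.0114 to 0.0432 for FER, -0.20 to 0.0544 for S2P and -0.0536 to 0.11 for SPI1.

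The replicate block gave 2 members higher and 0 lower, with adjusted p of 0.0036 for ATSBT5.2 and 0.00656 for SBT4.12, and 604 and 676 calls over all probe sets. Every array correlated best with its own number in the other group, a hint from the data at correlations of 0.024 or less. AIR3 had no named probe set, so no alternative was run for it.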
